A study of Macaca fascicularis with 21 samples.

Results

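The cells described here are those annotated postE-EPI, read here as early post-implantation epiblast, in the deposited cell table of cynomolgus monkey (Macaca fascicularis) embryos. They were taken by that annotation alone and numbered 170 of 1453 cells, or 170 of the 887 cells from days 11 to 14, in 14 of 21 embryos. The series grew blastocysts in culture and asked how far they develop beyond gastrulation. Per the labels, each blastocyst had a Matrigel-coated well and serum-containing medium to itself, the implantation site was cut out, most extra-embryonic cells were cleared away, and single cells were drawn up by mouth pipette for 3′-end RNA sequencing. Every sample is 1 embryo with the condition in vitro, and the labels name no drug, transgene or mutation in any group. Day 11 gave 19 postE-EPI cells in 2 embryos, day 12 gave 36 in 5, day 13 gave 17 in 3 and day 14 gave 98 in 4. The day is called a culture stage for day 12 replicate 1 and day 13 replicates 1 and 2, and a developmental stage for the remaining early embryos. Cells were chosen by hand, so the share of postE-EPI among the picked cells, from 1.27% to 62.4% per embryo, depends on which cells were taken.

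The epiblast is the pluripotent tissue that gives rise to the embryo proper, the germ line and, in primates, the amnion. Around implantation its cells leave the naive state of the blastocyst for a formative and later primed state, form a polarised epithelium around a lumen, and keep the factors POU5F1, NANOG and SOX2. FGF, NODAL, WNT and BMP signals pass between the epiblast and the endoderm, trophoblast and mesenchyme around it, and they precede the primitive streak, where gastrulation starts.

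The postE-EPI cells held 4704 to 483669 counts each, with a median of 57125.5 counts and 7482.5 genes. Counts were summed per embryo for types with at least 5 cells, which left 8 postE-EPI sums: replicates 1 and 2 of day 11, replicates 1, 2 and 3 of day 12, replicate 2 of day 13 and replicates 2 and 4 of day 14. The last pair of embryos held 53 and 42 of the 170 cells. The types of the same days were trophoblast (TE, 13 sums), extraembryonic mesenchyme (EXMC, 12), visceral or yolk sac endoderm (VE/YE, 4), early amnion (E-AM, 2, at day 12) and early gastrulating cells (E-Gast, 2, at day 14), as these labels are read here. Levels are in CPM, counts per 1000000 counts of a sum, after scaling of the sums by the trimmed mean of M values (TMM). Differences are log2 values from edgeR's quasi-likelihood test with the embryo as a block, postE-EPI minus the other type, and ± after a log2 value is its standard error. Calls required a Benjamini-Hochberg p under 0.05, adjusted over all genes tested. The sources used here do not say how cells were annotated. If the annotation drew on these expression values, the contrasts between types describe what it separated, and their p-values are no independent test. Fewer cells that hold a transcript and less of it per cell cannot be told apart in a sum.

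The 5 markers of the type were high in postE-EPI. POU5F1, a core pluripotency factor, had a lowest, median and highest level of 705, 803 and 1057 CPM over the 8 postE-EPI sums, against 1.74 to 134 CPM in TE, 2.43 to 78.7 in EXMC and 9.67 to 28.5 in VE/YE. NANOG, which holds cells in the pluripotent state, stood at 98.8, 153 and 295 CPM, and SOX2, the partner of POU5F1, at 43.0, 113 and 240.4 CPM. No sum of these 3 other types reached the lowest postE-EPI sum for POU5F1 or NANOG. For SOX2 1 did so, EXMC of day 13 replicate 1 with 55.5 CPM, beside the postE-EPI sum of day 12 replicate 3. Both NANOG and SOX2 were without a count in the 4 VE/YE sums. With 3 counts taken as the limit over these sums, they were at least 192-fold and 96.8-fold higher in postE-EPI. VE/YE cells of other embryos, outside these sums, did hold both transcripts, as given with the single cells below. DPPA5, an RNA-binding protein of pluripotent cells, had 593, 1170.4 and 1909.9 CPM, and OOEP, of the maternal complex under the egg membrane, 23.1, 245 and 827 CPM. DPPA5 did not overlap with the 3 types, whereas the OOEP sums of day 14 lay inside the ranges of TE (0 to 96.9 CPM), EXMC (0 to 205) and VE/YE (0 to 103). All 5 markers were called higher than in TE, EXMC and VE/YE, and none was called against E-AM or E-Gast. Few genes of any kind were: 0.591% of all genes were called higher than in E-AM, and 0.0197% were called against E-Gast. Only 3 embryos had a sum of both postE-EPI and VE/YE. With at least 10 cells per sum, all 5 calls against VE/YE were lost, though the directions held.

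At the level of single cells, all 170 postE-EPI cells had a POU5F1 count, and NANOG was counted in 161 of 170 (94.7%) and SOX2 in 141 of 170 (82.9%). When each cell was thinned to 10000 counts, NANOG remained in 80.9% and SOX2 in 55.4% of 157 cells, since 13 cells were shallower. TE cells, a type that should lack these factors and that was sequenced to a median of 70056 counts, showed NANOG in 11.8% of cells unthinned and 2.43% thinned, and SOX2 in 11.5% and 1.52%. Thinned VE/YE cells showed NANOG in 2 of 44 and SOX2 in 1 of 44, and the cells with a count belong to embryos without a VE/YE sum. Cells of 1 embryo are not replicates, so these shares are a description.

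**Figure D1:**
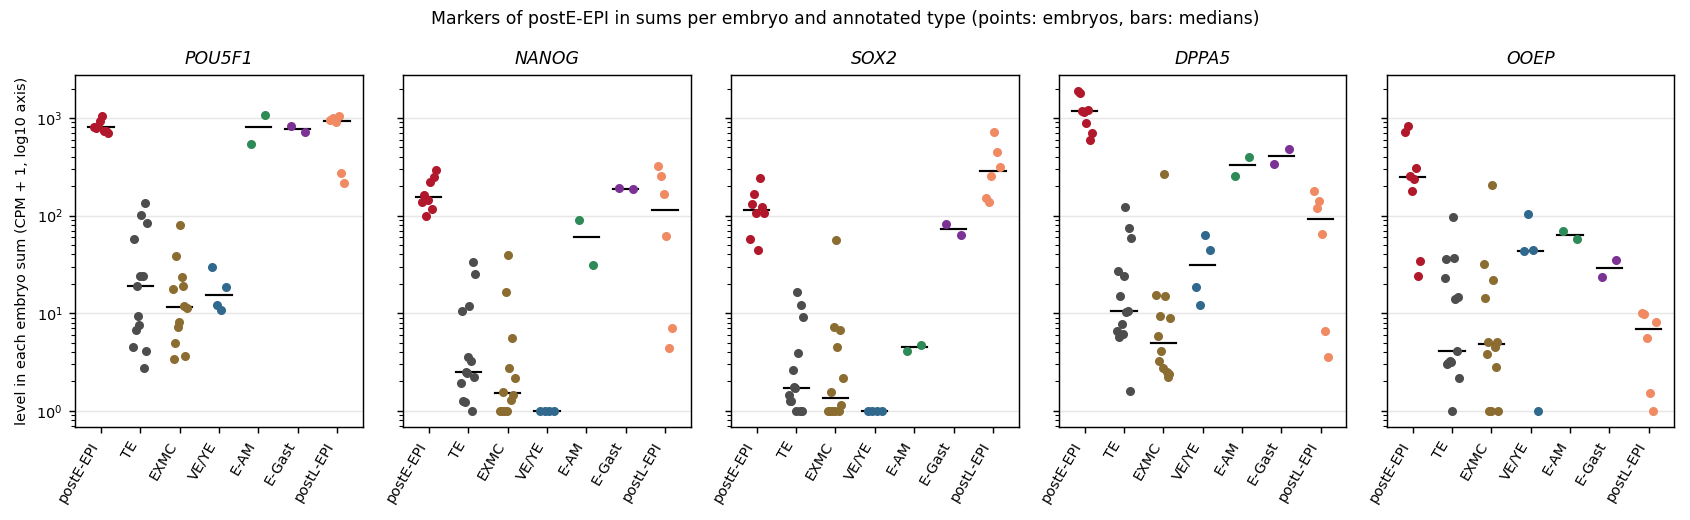
Level of the 5 postE-EPI markers in every sum of at least 5 cells, as CPM + 1 on a log10 axis, by annotated type; each point is 1 embryo and the bar is the median. The postE-EPI points lie above all TE, EXMC and VE/YE points for POU5F1, NANOG and DPPA5 and, but for 1 EXMC point, for SOX2, with NANOG and SOX2 at 0 in the 4 VE/YE sums.

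Some sums of other types carried epiblast transcripts, and these belong to embryos in which many postE-EPI cells were picked or to day 13. POU5F1 reached 99.6, 134 and 83.3 CPM in the TE sums of day 13 replicate 1 and day 14 replicates 2 and 4, against a TE median of 18.2 CPM. DPPA5 was 266 CPM and SOX2 55.5 CPM in EXMC of day 13 replicate 1, where the EXMC medians were 3.98 and 0.360 CPM. In the other direction, the summed level of the 15 trophoblast markers was 810.4 to 3912 CPM in postE-EPI and 8339.5 to 27138 CPM in TE. The hormone subunit CGA, with 477, 1215 and 3232 CPM in postE-EPI, had the highest level among them, and after thinning it was counted in 98.1% of postE-EPI cells, 94.3% of EXMC cells and 100% of TE cells (100%, 97.1% and 100% unthinned, with a median of 52413 counts per EXMC cell). The 16 mesenchyme markers summed to 253 to 957 CPM in postE-EPI and 4661 to 26153 in EXMC, and the 16 endoderm markers to 31.7 to 838 and 13703 to 20723 in VE/YE, with FOXA1 and APOB at 0 in every postE-EPI sum. The part of such transcripts in the differences below was not tested.

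Against TE, 3633 of 15237 genes (23.8%) were called higher in postE-EPI and 3342 (21.9%) lower. Against EXMC, 2792 (18.3%) were higher and 2092 (13.7%) lower, and against VE/YE, 1829 (12%) were higher and 1442 (9.46%) lower. Without day 11 replicate 2 the count against VE/YE was 2042 in place of 3271. Of the calls of named genes, 24 of 73 against VE/YE held in every alternative fit, beside 57 of 71 against EXMC and 91 of 95 against TE. These comparisons share the 8 postE-EPI sums, so they are set side by side and are not independent of each other. In all 3 contrasts 958 genes (6.29%) were called higher and 532 (3.49%) lower. Adding E-AM left 40 (0.263%) and 63 (0.413%). Adding E-Gast left 0 higher and 3 lower (0.0197%), so the genes named next were ranked over TE, EXMC and VE/YE, a choice made after this result was seen. Against E-Gast alone edgeR called 0 genes higher, with 770 of 15237 genes at an unadjusted p under 0.05 in either direction.

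The 20 genes that led this ranking, by the smallest of the 3 log2 differences among genes with a symbol and a mean of at least 10 CPM included the transcription factors and chromatin proteins NANOG, SOX2, PRDM14, ZSCAN10 and UTF1. PRDM14, a repressor that guards pluripotency, had 22.0, 41.1 and 85.9 CPM in postE-EPI, at most 4.30 CPM in TE and 3.03 CPM in EXMC, and no count in VE/YE. It was higher than in TE (log2 difference 5.95 ± 0.62, adjusted p = 2.06e-09), in 8 of 8 embryos, and at least 45.0-fold higher than VE/YE. ZSCAN10, a zinc finger factor of stem cells, was higher than in TE (5.53 ± 0.52, adjusted p = 2.32e-10) and at least 58.1-fold higher than VE/YE. UTF1, a chromatin-bound factor, ranged over 1.43 to 62.5 CPM, and it was higher than in TE (5.95 ± 0.72, adjusted p = 5.7e-08). No TE, EXMC or VE/YE sum overlapped with postE-EPI for PRDM14, while for UTF1 the lowest postE-EPI sum lay under the highest of TE, 2.74 CPM, and of EXMC, 16.1 CPM.

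The other leading genes included 3 FGF ligands, described below. KCTD8, an auxiliary subunit of GABA-B receptors, gave 127, 279.7 and 490.2 CPM against a TE median of 8.70 CPM (5.39 ± 0.45, adjusted p = 2.57e-10). It was counted in 167 of 170 postE-EPI cells. It stood at 202 and 374 CPM in E-AM and 553 and 404 CPM in E-Gast, and neither difference was called.

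USP44, a ubiquitin protease that acts on histone H2B and at the mitotic checkpoint, ranged over 48.7 to 313 CPM in postE-EPI with a TE median of 1.505 CPM (5.40 ± 0.46, adjusted p = 6.84e-12). DPYSL5, of the collapsin response mediator family, and JPH4, a junctophilin of neurons, had postE-EPI medians of 39.0 and 15.6 CPM. The call of JPH4 against VE/YE was lost without day 11 replicate 1, day 11 replicate 2 or day 12 replicate 2 (adjusted p = 0.101, 0.0736 and 0.066). CCL20, a chemokine, was higher than in TE (7.48 ± 0.63, adjusted p = 9.67e-12), and so was RRAGD, a Rag GTPase of nutrient sensing at the lysosome (7.09 ± 0.69, adjusted p = 2.27e-10). FXYD7, a regulator of the sodium pump, LRRIQ1, DYDC2 and OSTN were also among them, the last being a peptide hormone with a median of 2.42 CPM. KHDC3L is described with the maternal complex.

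**Figure D2:**
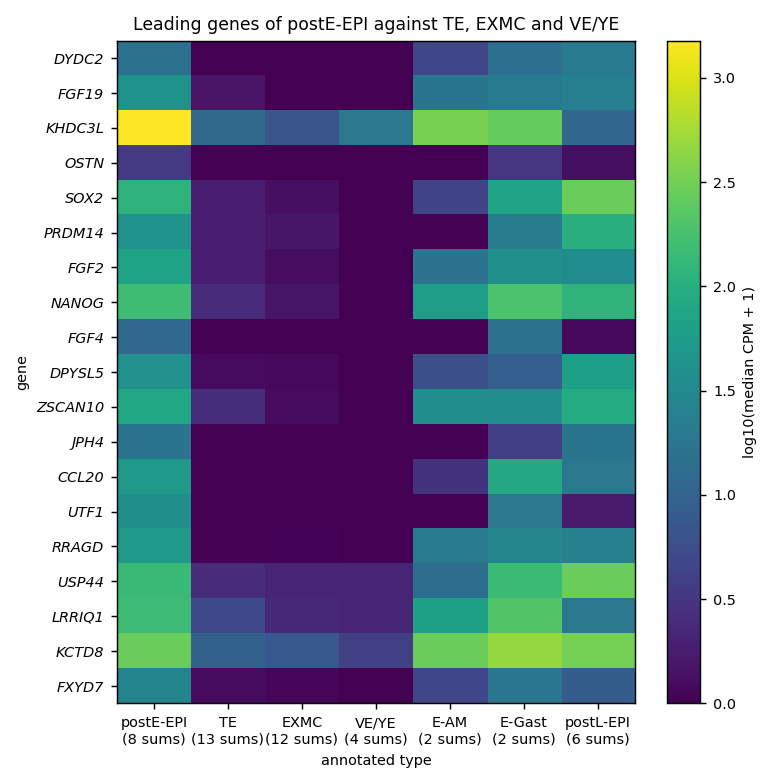
Median level of 19 of the 20 genes with the highest ranking differences in postE-EPI against TE, EXMC and VE/YE, as log10(CPM + 1) of the median over sums, by annotated type, with the number of sums under each type. The TE, EXMC and VE/YE columns are near 0 for most genes. KCTD8 has a median of 279.7 CPM in postE-EPI, 288 in E-AM and 478 in E-Gast, while USP44 has 139, 12.9 and 147 CPM.

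Of 14 core pluripotency genes looked for, 13 were in the table. In postE-EPI 10 of 13 were higher and 1 lower than in TE, 9 higher and 1 lower than in EXMC, and 10 higher and 0 lower than in VE/YE. Higher calls made up 76.9%, 69.2% and 76.9%, beside 23.8%, 18.3% and 12% over all genes. Lower calls made up 7.69%, 7.69% and 0%, beside 21.9%, 13.7% and 9.46%. The median log2 differences were 4.63, 3.03 and 2.74, beside 0.04, 0.09 and 0.20 over all genes. DPPA4, a DNA-binding protein of pluripotent chromatin, was higher than in TE, EXMC and VE/YE, with log2 differences of 5.94 ± 0.56, 3.03 ± 0.53 and 5.37 ± 0.98. L1TD1, an RNA-binding protein derived from a transposon, was higher as well, with log2 differences of 2.49 ± 0.30, 3.60 ± 0.32 and 2.74 ± 0.46 in the same order. LIN28B, which blocks maturation of let-7 microRNAs, was the 1 member lower than TE (-1.08 ± 0.28, adjusted p = 0.00227) and EXMC (-1.04 ± 0.29, adjusted p = 0.00753). Its partner LIN28A was higher than in TE (1.26 ± 0.15, adjusted p = 1.46e-08). ZFP42, a marker of mouse naive cells, was not called, with a postE-EPI median of 7.48 CPM and a TE median of 7.60 CPM.

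Markers of the naive state of the blastocyst were split, with 5 higher and 3 lower of 11 against TE, 6 and 2 against EXMC, and 1 and 3 against VE/YE. The shares higher, 45.5%, 54.5% and 9.09%, stood beside 23.8%, 18.3% and 12% over all genes. The shares lower, 27.3%, 18.2% and 27.3%, stood beside 21.9%, 13.7% and 9.46%. KLF17 and ARGFX, factors of human naive cells, had a median of 0 CPM in postE-EPI, and TFCP2L1 was lower than in TE (-3.26 ± 0.39, adjusted p = 1.45e-08). TBX3, a T-box factor, was lower than in TE (-3.93 ± 0.44), EXMC (-1.73 ± 0.42), VE/YE (-2.42 ± 0.54) and E-AM (-2.85 ± 0.64). DPPA5, DPPA3 and NLRP7 were higher than in TE and EXMC. Against VE/YE DPPA5 was higher (5.19 ± 0.99), DPPA3 was lower (-2.61 ± 0.69, adjusted p = 0.0082) and NLRP7 was not called (-0.44 ± 0.88, adjusted p = 0.773). Of the 16 primed and formative genes tested, 12 were higher than in TE, 11 were higher and 1 lower than in EXMC, and 5 were higher and 3 lower than in VE/YE. The shares higher were 75%, 68.8% and 31.2% beside 23.8%, 18.3% and 12% over all genes. The shares lower than EXMC and VE/YE were 6.25% and 18.8% beside 13.7% and 9.46%. SALL2, a zinc finger factor, was higher than in TE (5.16 ± 0.53). OTX2 and ZIC2, which also mark the anterior endoderm, were lower than in VE/YE (-6.50 ± 0.77 and -3.65 ± 0.78). FGF5 and POU3F1, formative genes of the mouse, had no count in any postE-EPI sum.

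FGF ligands were higher in postE-EPI than in TE and EXMC. FGF2, which sustains primate pluripotent cells in culture, had 26.9, 69.4 and 96.9 CPM, against at most 6.75 CPM in TE and 5.04 in EXMC. Over the 4 VE/YE sums it had 1 count, and the ratio of summed levels was 162 (95% counting interval 29.0 to 6401). FGF4, the ligand by which the inner cell mass signals to the primitive endoderm, reached 3.48 to 41.8 CPM in postE-EPI. It was without a count in VE/YE, where the bound is at least 10.2-fold higher, and the call was lost without day 13 replicate 3 (adjusted p = 0.0749). FGF19, a hormone-like FGF, had 15.7, 41.3 and 70.0 CPM and was at least 29.8-fold higher than in the VE/YE sums. All 4 ligands tested were called higher than in TE and EXMC, beside 23.8% and 18.3% over all genes. Their median log2 differences were 5.88 and 6.60, beside 0.04 and 0.09 over all genes. FGF17, a ligand of the streak and anterior endoderm, differed in VE/YE, where the sums held 38.7 to 162 CPM and postE-EPI was lower (-5.14 ± 1.05, adjusted p = 0.000492). FGF17 lost its call against EXMC when any of 5 embryos was left out, with adjusted p up to 0.0884 (without day 11 replicate 1). Thinned to equal depth, FGF2 was counted in 36.3% of postE-EPI cells (68.8% unthinned), FGF19 in 31.2% (70.6%) and FGF4 in 8.92% (23.5%). In thinned TE cells the shares were 0.912% for FGF2, 1.22% for FGF19 and 0 of 329 cells for FGF4, which by the limit of 3 counts allows up to 0.912% of thinned cells with a count. Unthinned, TE cells had 9.55%, 5.34% and 1.12% in the same order.

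The receptors and feedback genes of FGF signalling held called genes in both directions. FGFR1, the main receptor of the epiblast, was lower than in TE (-1.15 ± 0.23, adjusted p = 8.97e-05) and VE/YE (-1.65 ± 0.31, adjusted p = 0.000179), with 111 to 272 CPM in postE-EPI. FGFR4, a receptor of the primitive endoderm, was lower than in VE/YE (-3.44 ± 1.00, adjusted p = 0.0123). ETV4, a target of ERK signalling, was higher than in EXMC (3.58 ± 0.39, adjusted p = 4.08e-09) and VE/YE (2.05 ± 0.56, adjusted p = 0.00726), whereas DUSP6, another ERK target, was lower than in EXMC (-1.95 ± 0.61, adjusted p = 0.015). Of 12 genes, 5 were higher and 2 lower than in TE, 1 and 3 against EXMC, and 1 and 4 against VE/YE. Of these shares, the 16.7% lower than TE and the 8.33% and 8.33% higher than EXMC and VE/YE did not exceed the 21.9%, 18.3% and 12% over all genes. Without day 11 replicate 2 the calls of FGFR4 and ETV4 against VE/YE were lost (-3.02, adjusted p = 0.0866, and 1.55, adjusted p = 0.104). The feedback inhibitors SPRY1, SPRY2 and SPRY4 were 3 of those higher than TE.

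NODAL, the ligand that maintains the primed epiblast and later patterns it, was low in postE-EPI. Its sums had 0, 8.60 and 31.7 CPM, with 1 of 8 at 0, against 17.9, 45.8 and 108 CPM over the 4 VE/YE sums. The EXMC sums held 3 counts in all, a ratio of summed levels of 73.98 (95% counting interval 24.8 to 363). NODAL was higher than in TE (4.31 ± 0.87, adjusted p = 0.000128) and lower than in VE/YE (-2.98 ± 1.01, adjusted p = 0.031). In E-Gast of the same day 14 embryos NODAL stood at 36.0 and 61.5 CPM, beside 7.69 and 10.9 CPM in their postE-EPI cells, a difference that was not called. The share of cells with a NODAL count, thinned, was 5.10% in postE-EPI and 36.4% in VE/YE (21.8% and 65.3% unthinned), and the median depth of VE/YE cells was 46298 counts. The call against VE/YE was lost without day 11 replicate 1, day 11 replicate 2 or day 13 replicate 3 (adjusted p = 0.0634, 0.113 and 0.0742). GDF3, a related ligand, was 28.6 to 167 CPM and higher than in TE (5.74 ± 0.73, adjusted p = 9.34e-07).

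Antagonists and targets of NODAL were lower in postE-EPI than in VE/YE. CER1, a secreted inhibitor of the anterior endoderm, had 4 counts over all postE-EPI sums and 33.5, 185 and 454 CPM in VE/YE (-9.16 ± 0.94, adjusted p = 1e-08). LEFTY1, a feedback inhibitor, was lower too (-5.73 ± 1.05, adjusted p = 0.000146). EOMES, a T-box factor of streak and endoderm, was lower than in VE/YE (-4.27 ± 0.97, adjusted p = 0.00145) but higher than in TE (3.04 ± 0.80, adjusted p = 0.00199), where its median was 0.697 CPM. In all, 5 of 8 such genes (62.5%) were lower than in VE/YE and 0 higher, beside 9.46% and 12% over all genes. Their median was -4.32 beside 0.20 over all genes. FOXH1, the DNA-binding partner of SMAD2, was higher than in TE (4.67 ± 0.47, adjusted p = 2.87e-10) and EXMC (1.73 ± 0.43, adjusted p = 0.00197). The receptors ACVR1B and ACVR2A were lower than in VE/YE (-3.78 ± 0.62 and -2.72 ± 0.59).

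Among WNT and BMP genes, SFRP2, a secreted WNT inhibitor, stood out with 166, 355 and 492.5 CPM, and it was higher than TE (5.07 ± 0.73, adjusted p = 7.22e-06), EXMC (3.62 ± 0.74, adjusted p = 0.0007) and VE/YE (7.56 ± 1.52, adjusted p = 0.00106). No TE or VE/YE sum of SFRP2 exceeded 52.4 CPM, and the highest EXMC sum had 102 CPM. WNT5B, a noncanonical ligand, was higher than in TE (4.01 ± 0.54, adjusted p = 1.45e-07), and WNT3A lower (-4.82 ± 0.57, adjusted p = 1.31e-07). Of the 11 WNT genes tested, 5 were higher and 1 lower than in TE, 3 and 1 against EXMC, and 1 and 4 against VE/YE. The 9.09% lower than TE, lower than EXMC and higher than VE/YE were under the 21.9%, 13.7% and 12% over all genes. The 45.5% and 27.3% higher than TE and EXMC stood beside 23.8% and 18.3%, and the 36.4% lower than VE/YE beside 9.46%. DKK1, a WNT inhibitor of the anterior endoderm, was lower than in VE/YE (-6.74 ± 1.44, adjusted p = 0.00135). BMP2, a ligand of the extraembryonic tissues, was lower than in EXMC (-7.08 ± 0.95) and VE/YE (-7.25 ± 1.13), and BMP4, a ligand of amnion and mesenchyme, lower than in EXMC (-3.94 ± 0.70) and E-AM (-3.98 ± 1.02). The BMP targets ID1 and ID4 were higher than in TE (2.06 ± 0.47 and 5.21 ± 0.68), while ID2, ID3, MSX2 and SMAD6 were lower. Counts for the 11 BMP genes were 3 higher and 5 lower against TE, 3 and 4 against EXMC, and 0 and 1 against VE/YE. The share higher than TE, 27.3%, and that lower than VE/YE, 9.09%, were near the 23.8% and 9.46% over all genes.

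**Figure D3:**
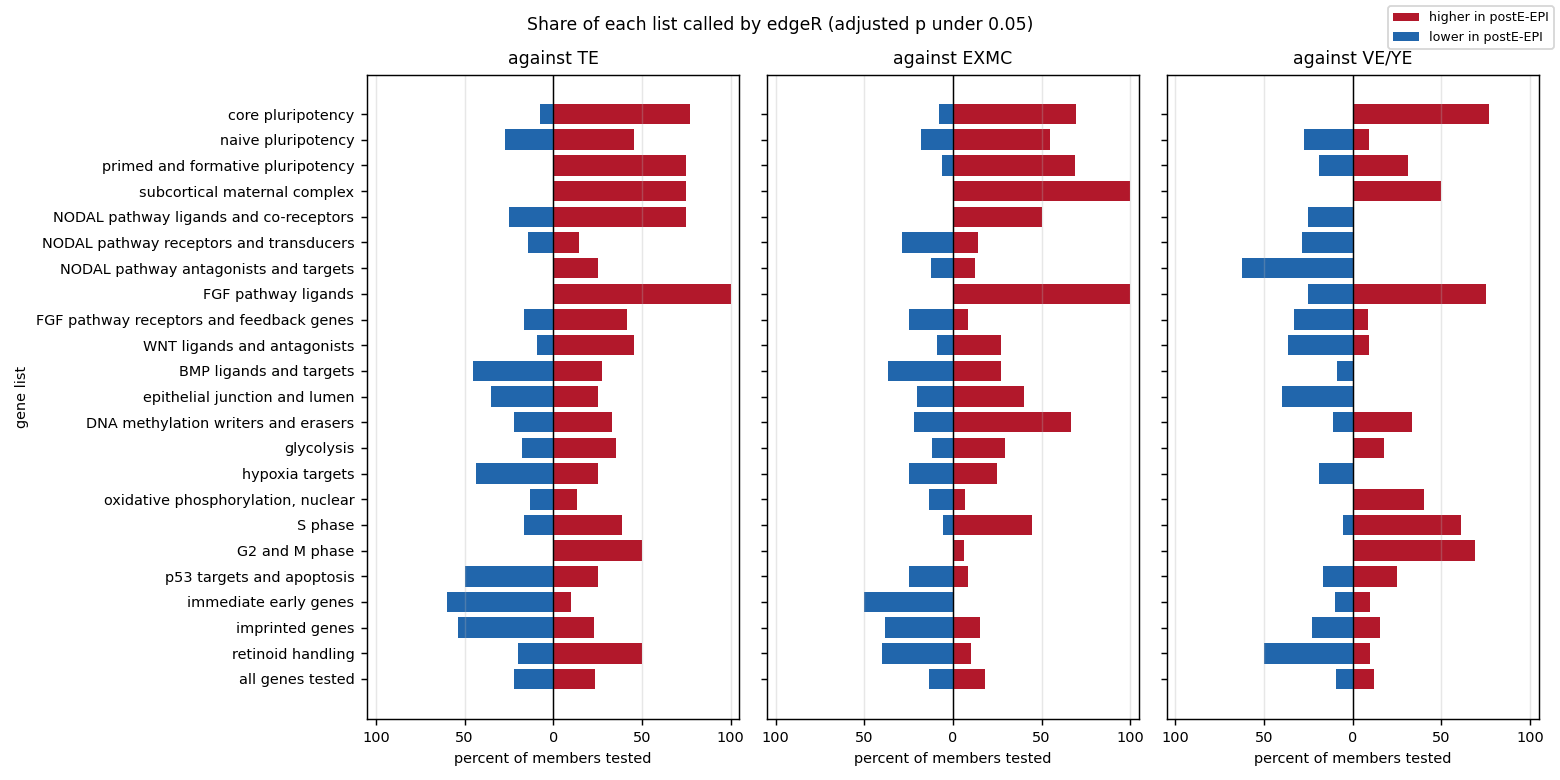
Share of each gene list called higher (right) and lower (left) in postE-EPI than in TE, EXMC and VE/YE by edgeR, in percent of the members tested, with the share over all genes tested as the last bar. All FGF ligands are higher against TE and EXMC, 5 of 8 NODAL antagonists and targets are lower against VE/YE, and no member of the G2 and M phase list is lower in any of the 3.

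Components of the subcortical maternal complex, a protein assembly stored in the egg, were found in postE-EPI at varied levels. KHDC3L, a KH-domain member, had 202, 1504 and 2501 CPM, the lowest in day 12 replicate 3 with 5 cells and the highest in day 13 replicate 2. The highest sums of TE, EXMC and VE/YE had 172, 362 and 43.5 CPM, so the lowest postE-EPI sum overlapped with EXMC, and the log2 differences were 6.16 ± 0.53, 6.73 ± 0.57 and 5.98 ± 0.88. NLRP2, another member, was higher than in TE (1.68 ± 0.29, adjusted p = 3.18e-05) and EXMC (1.95 ± 0.30, adjusted p = 1.36e-05), and VE/YE sums held 429.6 to 629 CPM beside 312 to 878 in postE-EPI. NLRP5, PADI6 and ZBED3, further members in the oocyte, had medians of 0.748, 0 and 0 CPM. TLE6, also a member, had a mean of 3.60 CPM in postE-EPI, 3.65 in TE, 0.661 in EXMC and 23.2 in VE/YE. Of 4 members tested, 3, 4 and 2 were higher than in TE, EXMC and VE/YE and 0 lower in each. Over all genes the shares higher were 23.8%, 18.3% and 12%. Reads of NLRP, KHDC and DPPA genes may be split between near-identical copies, and the sources used here do not state the counting rule.

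Several enzymes of DNA methylation differed between postE-EPI and TE, EXMC or VE/YE. Against E-Gast 0 of 9 were called, beside 0.0197% of all genes, so the lack of calls says nothing about these enzymes. There 8 of 9 log2 differences were positive, with a median of 0.70 beside 0.15 over all genes. The mean level of DNMT3B was 1042 CPM in postE-EPI, 1017 in postL-EPI, 721 in E-Gast and 311 in E-AM. DNMT3B, a de novo methyltransferase, was 676, 1009.6 and 1492 CPM in postE-EPI, above every sum of TE (up to 154 CPM), EXMC (up to 194) and VE/YE (up to 102). The log2 differences were 3.52 ± 0.33 from TE, 3.98 ± 0.35 from EXMC and 3.46 ± 0.52 from VE/YE, with adjusted p of 5.3e-09, 5.18e-09 and 3.74e-05. DNMT3A, the related enzyme, was higher than in TE (1.73 ± 0.23, adjusted p = 9.6e-08). TET2, which oxidises methylcytosine, went the other way, with 6.60, 8.44 and 33.0 CPM in postE-EPI and 127 to 763 CPM in TE (-4.58 ± 0.35, adjusted p = 3.18e-12), and it was lower also than in EXMC, VE/YE and E-AM. TET1, its relative in pluripotent cells, was higher than in TE (1.64 ± 0.19, adjusted p = 1.02e-08) and EXMC (1.28 ± 0.20, adjusted p = 3.92e-06).

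Among imprinted genes the called members included both higher and lower ones. SNRPN, a spliceosomal protein gene expressed from the paternal allele, stood at 704, 1013 and 1305 CPM in postE-EPI, at a median of 33.9 CPM in TE and at 394 CPM in EXMC. It was higher than in TE (4.44 ± 0.32, adjusted p = 8.01e-11), in 8 of 8 embryos, and than in EXMC (1.49 ± 0.31, adjusted p = 0.000633) and VE/YE (3.09 ± 0.49, adjusted p = 6.89e-05), without overlap with the sums of these types. NNAT, a membrane protein of neurons, was higher than in TE (5.13 ± 0.62, adjusted p = 4.18e-08). Lower than in TE were CDKN1C, a cell cycle inhibitor (-4.22 ± 0.44), PHLDA2, which restrains placental growth (-3.90 ± 0.46), and the growth factor IGF2 (-4.21 ± 0.69). The 13 imprinted genes tested gave 3 higher and 7 lower against TE, 2 and 5 against EXMC, and 2 and 3 against VE/YE. The shares higher, 23.1%, 15.4% and 15.4%, were near the 23.8%, 18.3% and 12% over all genes, and the shares lower, 53.8%, 38.5% and 23.1%, stood beside 21.9%, 13.7% and 9.46%.

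Genes of epithelial junctions and the lumen also had members called in either direction. CLDN6, a claudin of embryonic epithelia, had 248 to 410.0 CPM and was higher than in TE (3.41 ± 0.37, adjusted p = 3.3e-08) and EXMC (3.96 ± 0.41, adjusted p = 3.44e-08). CRB3, an apical polarity protein, was higher than in EXMC (3.75 ± 0.55, adjusted p = 2.5e-06), as was OCLN (4.04 ± 0.70). CLDN4 was lower than in TE (-4.16 ± 0.31, adjusted p = 3.23e-13) and E-AM (-4.41 ± 0.48, adjusted p = 2.43e-07). CDH2, N-cadherin, was lower than in VE/YE (-5.37 ± 0.52, adjusted p = 4.11e-08) and EXMC (-3.02 ± 0.42, adjusted p = 3.77e-06), whereas CDH1, E-cadherin, was higher than in EXMC (1.23 ± 0.49, adjusted p = 0.0498), a call that 9 of the fits without 1 embryo lost. Over 20 genes the counts were 5 higher and 7 lower against TE, 8 and 4 against EXMC, and 0 and 8 against VE/YE. The 25% higher than TE was near the 23.8% over all genes, and the 20% lower than EXMC stood beside 13.7% and the 40% lower than VE/YE beside 9.46%.

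LAMB1, a laminin chain of the basement membrane, was one of the 3 genes lower in postE-EPI than in each of the 5 other types, with 8.55, 15.7 and 66.5 CPM. It had 61.8 to 182 CPM in TE, 189.6 to 405 in EXMC, 475 to 753 in VE/YE, 129 and 177 in E-AM and 84.0 and 70.0 in E-Gast. The highest postE-EPI sum, day 12 replicate 1, overlapped with TE, and the other 7 lay below every sum of the other types. The log2 differences were -2.96 ± 0.25, -3.99 ± 0.26, -5.40 ± 0.32, -2.77 ± 0.39 and -2.12 ± 0.39 in that order. LAMA1, its partner chain, was lower than in TE (-2.28 ± 0.34), EXMC (-3.00 ± 0.37) and VE/YE (-3.03 ± 0.47).

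The other 2 genes lower than in each type in the main test were WLS and ATG10. Against VE/YE, WLS lost its call with at least 3 or at least 10 cells per sum, with thinned cells and with the pair of types alone. Its log2 difference there ranged from -2.03 to -0.54 over the alternative fits. The call of ATG10 against VE/YE was lost with at least 10 cells per sum and with the pair alone. WLS, which carries WNT ligands to the cell surface for secretion, had 7.92, 12.7 and 26.4 CPM in postE-EPI against 67.8 to 372 CPM in TE. In the embryos of day 14, where both types were summed, it was 14.9 and 12.2 CPM in postE-EPI and 66.0 and 118 in E-Gast (-2.37 ± 0.45, adjusted p = 0.0252). In day 12 replicates 1 and 2 it was 13.3 and 26.4 CPM in postE-EPI and 148 and 200.1 in E-AM (-3.69 ± 0.44, adjusted p = 1.3e-06). ATG10, an autophagy conjugating enzyme, ranged over 10.6 to 30.4 CPM, with 564 and 408 CPM in E-AM and 85.5 and 59.8 in E-Gast (-4.00 ± 0.41, adjusted p = 7.41e-08 and -2.37 ± 0.43, adjusted p = 0.0252). For both genes no sum of E-AM or E-Gast overlapped with postE-EPI.

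Ranked like the higher genes, the 10 leading genes below TE, EXMC and VE/YE were IL1R2, ZNF800, FUT11, SEMA6D, TFPI, TSHZ1, ZNF703, KDM6B, STXBP5 and S100A4. TFPI, an inhibitor of the tissue factor pathway of clotting, had 6.52, 18.6 and 35.4 CPM in postE-EPI and medians of 218 in TE, 242 in EXMC and 774 in VE/YE, with log2 differences of -3.69 ± 0.40, -3.55 ± 0.41 and -5.36 ± 0.50. KDM6B, a histone H3K27 demethylase, had log2 differences of -3.36 ± 0.46, -4.06 ± 0.48 and -4.65 ± 0.60. IL1R2, the decoy receptor of interleukin 1, had -5.07 ± 0.57, -3.87 ± 0.60 and -5.46 ± 0.71. KDM6B and IL1R2 had postE-EPI medians of 2.28 and 0.801 CPM. Medians of the 10 genes in postE-EPI ranged from 0 CPM for S100A4 to 18.6 CPM for TFPI. Without day 11 replicate 1 the calls of FUT11 and S100A4 against VE/YE (adjusted p = 0.0848 and 0.0764) and of S100A4 against EXMC (adjusted p = 0.0717) were lost, the last also without day 14 replicate 4 (adjusted p = 0.0965).

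By the same rule applied to each type alone, CCL20, VENTX, RRAGD and CAMKV were the genes most above TE, and ZNF436, LAIR1, IL1F10 and S100A5 those most below it. VENTX, a homeobox gene of naive primate cells, was higher (7.12 ± 0.85, adjusted p = 2.13e-08). ZNF436, a zinc finger gene, had 1 count over all postE-EPI sums, and its summed level was lower by a ratio of 285 (95% counting interval 51.0 to 11270). LAIR1, an inhibitory receptor of leukocytes, was lower as well (-6.36 ± 1.02, adjusted p = 3.53e-06). Against EXMC they were CP, VENTX, FGF19 and CCL20, and S1PR1, CCL23, ALDH1A2 and CCDC92. CP, ceruloplasmin, a copper carrier, had no count in EXMC and was at least 63.9-fold higher. S1PR1, a lipid receptor of vascular cells, had 1 count in postE-EPI, lower by a ratio of 333 (95% counting interval 59.5 to 13184). ALDH1A2, which makes retinoic acid, was lower too (-7.79 ± 0.92, adjusted p = 1.41e-07), with an EXMC median of 104 CPM. Against VE/YE they were FGF4, NANOG, ZNF20 and PCK2, and FOXQ1, APOB, FABP1 and LHX1. ZNF20 was at least 41.0-fold higher and PCK2, a mitochondrial gluconeogenic enzyme, at least 8.41-fold, the latter with its call lost without day 13 replicate 3 (adjusted p = 0.0567). The endoderm genes APOB and FOXQ1 had no count in the postE-EPI sums and were at least 872-fold and 955-fold lower there.

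Most cell cycle genes were higher than in VE/YE. Of 18 S phase genes, 11 were higher and 1 lower than in VE/YE, and of 16 G2 and M phase genes, 11 were higher and 0 lower. The shares higher were 61.1% and 68.8% beside 12% over all genes, and the medians were 1.30 and 1.42 beside 0.20. PCNA, the replication clamp, was higher (1.77 ± 0.26, adjusted p = 3.48e-06), and so was TOP2A, a topoisomerase of dividing cells (2.30 ± 0.53, adjusted p = 0.00331). RRM1, a subunit of ribonucleotide reductase, was the 1 lower gene (-2.61 ± 0.25, adjusted p = 6.25e-10). Against TE, 7 S phase genes were higher and 3 lower, among the latter the G1 cyclin CCNE1 (-3.21 ± 0.32, adjusted p = 8.93e-09), and 8 G2 and M genes were higher and 0 lower. Against EXMC, 8 S phase genes were higher and 1 lower, and of the G2 and M genes TOP2A alone was called, higher, a call lost without day 11 replicate 1 or day 12 replicate 1 (adjusted p = 0.0586 and 0.0818). The S phase shares lower than TE and EXMC, 16.7% and 5.56%, were under the 21.9% and 13.7% over all genes. The 6.25% of G2 and M genes higher than EXMC was under 18.3%. The S phase shares higher, 38.9% and 44.4%, stood beside 23.8% and 18.3%, and the 50% of G2 and M genes higher than TE beside 23.8%.

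For metabolism and stress, SLC2A1, the main glucose transporter, had 181 to 610.2 CPM and was lower than in TE (-2.05 ± 0.36, adjusted p = 6.75e-05). Of 16 hypoxia targets 4 (25%) were higher and 7 (43.8%) lower than in TE, beside 23.8% and 21.9% over all genes. VEGFA, a vascular growth factor, was lower than in TE (-3.74 ± 0.41, adjusted p = 5e-09), and CA9, a carbonic anhydrase, higher (4.84 ± 0.77, adjusted p = 2.95e-06). Nuclear genes of oxidative phosphorylation were higher than in VE/YE for 6 of 15 (40%, beside 12% over all genes), among them SDHB, a subunit of complex II (1.41 ± 0.34, adjusted p = 0.00235). The p53 targets CDKN1A and GDF15 were lower than in TE (-2.18 ± 0.35 and -3.04 ± 0.72), while PMAIP1, a pro-apoptotic BH3 protein, was higher (2.79 ± 0.59, adjusted p = 0.000337), with 46.7 to 166 CPM in postE-EPI. The 10 immediate early genes, which dissociation of tissue can induce, were lower for 6 and higher for 1 against TE and lower for 5 against EXMC. The shares lower, 60% and 50%, stood beside 21.9% and 13.7% over all genes, and the 10% higher than TE beside 23.8%. Among the lower genes were FOSB (-3.92 ± 0.69 against TE) and ATF3 (-2.73 ± 0.40).

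E-AM, summed in day 12 replicates 1 and 2 from 6 and 7 cells, had POU5F1 at 545 and 1079.9 CPM beside 832 and 927 CPM in postE-EPI of the same embryos. SOX2 stood at 3.15 and 3.78 CPM beside 167 and 106, with 2 counts in all over the 2 E-AM sums. The ratio of summed levels was 31.9 (95% counting interval 8.81 to 263), a difference that edgeR did not call and DESeq2 did. In edgeR's test 90 genes (0.591%) were called higher in postE-EPI than in E-AM and 202 (1.33%) lower. Of 11 amnion markers tested, 8 (72.7%) were lower in postE-EPI, beside 1.33% over all genes. The summed level of the list was 175 to 487 CPM in postE-EPI and 1593 to 2622 in E-AM, with KRT17 at 0 in E-AM.

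The amnion markers that differed included ISL1, a LIM homeobox gene of the amnion (-7.08 ± 1.62, adjusted p = 0.0121), TFAP2A (-3.28 ± 0.81, adjusted p = 0.0354) and GATA3 (-3.52 ± 0.51, adjusted p = 0.000122), both factors shared by trophoblast and amnion. WNT6 was 135 and 52.9 CPM in E-AM and had 2 counts in postE-EPI, a ratio of summed levels of 756 (95% counting interval 200.0 to 6395) in favour of E-AM. HAND1, a factor of extraembryonic mesoderm and amnion, was lower in postE-EPI (-6.29 ± 1.10, adjusted p = 0.00226). The 4 genes most below E-AM were SLITRK6, CXHXorf48, TGFBI and TFAP2B. SLITRK6, a neuronal surface protein, had no count in postE-EPI and was at least 124-fold lower, and TGFBI, a matrix protein, had an E-AM level of 135 and 11.3 CPM (-9.36 ± 1.10, adjusted p = 4.15e-06). The 4 most above it were CBY1, FEZ1, PIM2 and ATP10A. FEZ1, an adaptor of axonal transport, was 43.7 and 18.5 CPM in postE-EPI of these embryos. It was without a count in the E-AM sums, which makes it at least 9.60-fold higher in postE-EPI. CBY1, an antagonist of beta-catenin, was at least 6.13-fold higher. These contrasts rest on 13 E-AM cells of 2 embryos: a fit of only the postE-EPI and E-AM sums called 74 genes in place of 292, the fit without day 12 replicate 1 called 18 and that without day 12 replicate 2 called 161. Of the 20 calls of named genes against E-AM, 4 held in every fit without 1 embryo, those of CLDN4, LAMB1, WLS and ATG10. ISL1, GATA3, HAND1, TFAP2A, TGFBI and SLITRK6 were among those lost without day 12 replicate 1, and for ISL1 the value was then -4.39, adjusted p = 0.682.

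E-Gast, summed in day 14 replicates 2 and 4 from 10 cells each, had the 3 called genes WLS, ATG10 and LAMB1, all lower in postE-EPI. POU5F1 was 831 and 726 CPM in E-Gast and 739 and 705 CPM in postE-EPI of the same embryos, SOX2 81.0 and 62.3 and 121 and 105, and NANOG 190.4 and 186 and 249 and 295. The 12 streak markers summed to 180.1 to 241 CPM in E-Gast and 1.74 to 106 in postE-EPI, and MIXL1, MESP1, SNAI2, GSC, LHX1 and MSGN1 were at 0 in E-Gast. TBXT, the factor that defines the streak, was 79.5 and 47.8 CPM in E-Gast and 15.6 and 10.4 in postE-EPI, EOMES 85.5 and 94.8 against 1.92 and 3.88, and SP5, a WNT target, 64.5 and 34.1 against 5.05 and 2.12. None of these was called. The embryo term of the test is shared with TE and EXMC of the same embryos, and with the postE-EPI and E-Gast sums alone 114 genes were called in place of 3. The 3 calls were each lost without day 11 replicate 1, day 11 replicate 2, day 14 replicate 2 or day 14 replicate 4, and without day 14 replicate 2 WLS had -2.64, adjusted p = 0.0762.

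Within postE-EPI, edgeR called 0 of 9444 genes (0%) for a change over days 11 to 14, with 528 genes (5.59%) at an unadjusted p under 0.05. DESeq2 called 67 on the same sums, and edgeR without a filter on low counts 346. The median standard error was 0.251 on the log2 scale per day. For several genes the sums of day 11 and day 14 did not overlap. With so few sums per day this can happen often without any change, and its share over all genes was not counted. OOEP was 711 and 827 CPM at day 11, 255, 179.6 and 236 at day 12, 307 at day 13 and 23.1 and 33.7 at day 14 (-1.36 ± 0.25 per day, adjusted p = 0.174). Its day 14 values lay below and its day 11 values above all others. DPPA5 had 1909.9 and 1805 CPM at day 11 and 593 and 700.0 at day 14 (-0.47 ± 0.09 per day, adjusted p = 0.174). POU5F1, NANOG and SOX2 had changes of -0.11 ± 0.09, 0.25 ± 0.13 and 0.17 ± 0.22 per day with adjusted p of 0.976, 0.896 and 0.997.

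The smallest adjusted p in this test was 0.085, for ALCAM, SHISA5 and STARD9, which were named after their values were seen. ALCAM, a cell adhesion molecule, had 81.9 and 97.3 CPM at day 11, 143, 177 and 186 at day 12, 158 at day 13 and 609 and 417 at day 14 (0.77 ± 0.12 per day). SHISA5, an endoplasmic reticulum protein of p53-dependent death, had 474 and 686 CPM at day 11 and 86.0 and 54.1 at day 14 (-1.02 ± 0.16 per day). DPPA3, a maternal factor that protects methylation in the zygote, had 131 and 146 CPM at day 11 and 8.41 and 16.6 at day 14, with 12.3 CPM at day 13 (-1.21 ± 0.21 per day, adjusted p = 0.087). The 2 day 11 sums had 10 and 9 cells and the day 14 sums 53 and 42, and day 14 replicates 1 and 3, with 2 and 1 cells, are in no sum. The naive list, which holds DPPA5 and DPPA3, had a median change of -0.55 per day over 10 genes, none called, beside -0.01 over all genes.

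**Figure D4:**
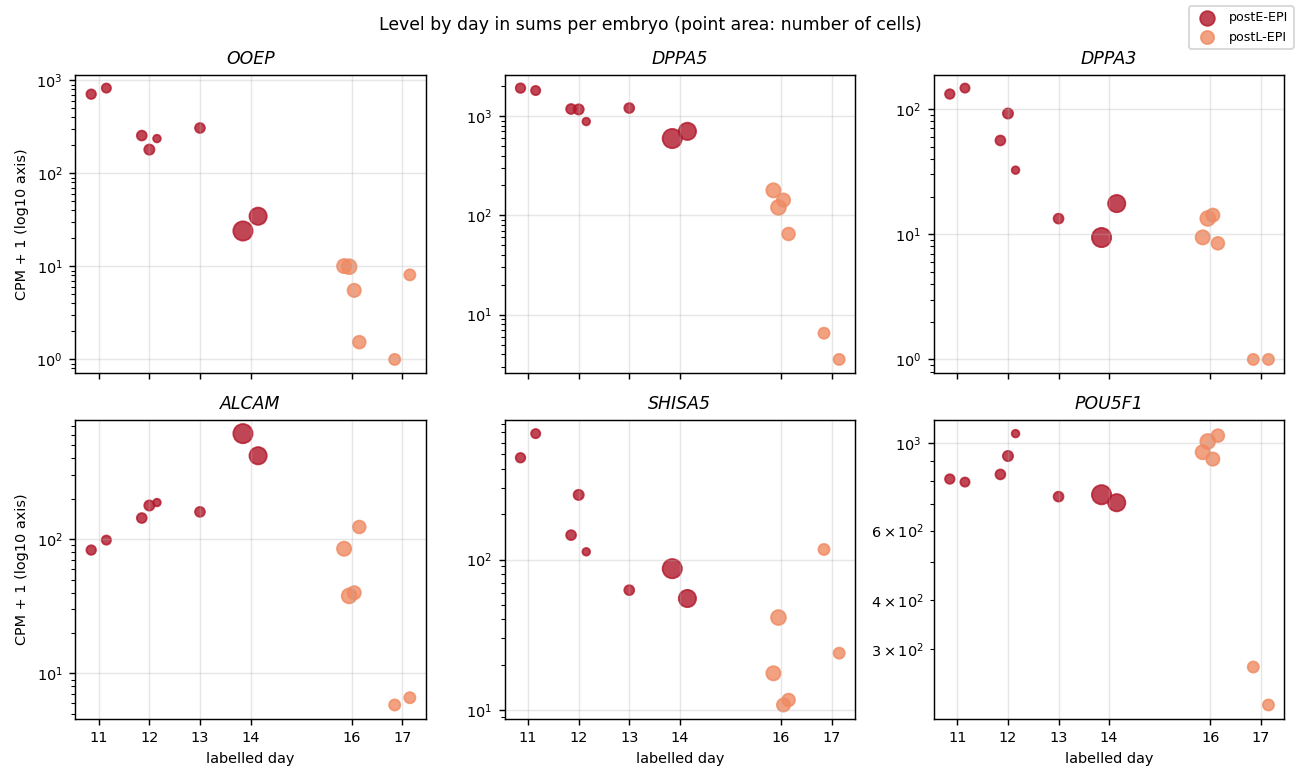
Level of 6 genes in each postE-EPI sum of days 11 to 14 and, for reference, in each postL-EPI sum of days 16 and 17, as CPM + 1 on a log10 axis against the labelled day; each point is 1 embryo, and its area grows with the number of cells. OOEP has 711 and 827 CPM at day 11 and 23.1 and 33.7 CPM at day 14, ALCAM has its highest levels at day 14, and neither passes the test within days 11 to 14.

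The change with day was also compared with that of TE and EXMC in the same embryos. At day 14 these were replicates 2 and 4 for TE and replicate 4 alone for EXMC. Levels of TE and EXMC from other day 14 embryos, given below, are outside the tests. Of 15264 genes, 2 (0.0131%) differed in their change with day between postE-EPI and TE, and of 11806 genes, 1 (0.00847%) between postE-EPI and EXMC. FN1, fibronectin, a matrix protein, had 147 and 182 CPM in postE-EPI at day 11 and 55.3 and 50.2 at day 14. In TE it had 52.5 and 66.3 CPM at day 11 and 196, 166, 2466 and 615 at day 14, and in EXMC 902 and 1120.3 at day 11 and 4198, 3919 and 2598 at day 14. The difference in log2 change per day was -1.36 ± 0.21, adjusted p = 0.0409 against TE and -0.98 ± 0.14, adjusted p = 0.0205 against EXMC. DEGS2, a sphingolipid hydroxylase, went from 347 and 195 CPM in TE of day 11 to 1.23 CPM at most in TE of day 14, while postE-EPI held 3.35 to 52.98 CPM over all days (2.99 ± 0.41, adjusted p = 0.0202). All 3 calls were lost without either day 11 embryo or without day 14 replicate 4, and FN1 against TE also without day 12 replicate 1 or 2; without day 14 replicate 4 FN1 against TE had -1.05, adjusted p = 0.389.

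postL-EPI, the late epiblast, was summed in 4 embryos of day 16 and 2 of day 17, so type, day and embryo cannot be told apart in this contrast. The day is called a culture stage for both sums of day 17 and a developmental stage for those of day 16, and a fit of the developmental stage embryos called 310 genes, 169 of them among the 336 called with all embryos. Of 10988 genes, 171 (1.56%) were called higher and 165 (1.5%) lower in postE-EPI. SPP1, a secreted phosphoprotein, headed the higher genes with 95.0, 508 and 6040.2 CPM against 3.20, 8.63 and 24.9 CPM (6.88 ± 1.14, adjusted p = 0.00586). The sums did not overlap, and those of day 14 replicates 2 and 4, at 6040.2 and 2566 CPM, were the highest. TBPL2, a TATA-binding protein of oocytes, was higher (6.08 ± 1.11, adjusted p = 0.00713), as were UTF1 (5.11 ± 0.89, adjusted p = 0.00229) and DNMT3L, a cofactor of de novo methylation (5.60 ± 1.21, adjusted p = 0.0221). NLRP2 was higher (3.40 ± 0.38, adjusted p = 3.67e-05), and all 3 members of the maternal complex tested were higher, beside 1.56% over all genes.

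Among the lower genes, IGFBP2, a carrier of insulin-like growth factors, had 18.0, 46.1 and 73.3 CPM in postE-EPI and 220.4, 515 and 763 in postL-EPI (-3.49 ± 0.37, adjusted p = 2.11e-05). TGFB3, a TGF-beta ligand, was lower (-4.66 ± 1.07, adjusted p = 0.0355), and so was TGFBI (-4.54 ± 0.76, adjusted p = 0.0015). Glycolytic genes were lower for 5 of 16 (31.2%) and higher for 0, beside 1.5% and 1.56% over all genes. Their median was -0.80 beside -0.05 over all genes. TPI1, triosephosphate isomerase, had 178 to 929 CPM in postE-EPI and 994 to 3558 in postL-EPI (-1.85 ± 0.34, adjusted p = 0.00488). PFKP, a phosphofructokinase, was lower as well (-2.57 ± 0.52, adjusted p = 0.00822). CENPF, a kinetochore protein, was lower (-0.87 ± 0.23, adjusted p = 0.0431), and PCNA (0.96 ± 0.23, adjusted p = 0.0248) and the helicase subunit MCM6 (0.85 ± 0.23, adjusted p = 0.0431) higher.

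Some members of the trophoblast and mesenchyme lists also differed between postE-EPI and postL-EPI. The trophoblast list summed to 810.4 to 3912 CPM in postE-EPI and 116 to 616 in postL-EPI. CGA, KRT18 and PGF were called higher in postE-EPI out of 12 tested (25%, beside 1.56% over all genes). NPPA and NPPB, natriuretic peptides with TE medians of 1866 and 1144 CPM, were likewise higher than in postL-EPI. The mesenchyme list summed to 253 to 957 and 431 to 1597 CPM, and LUM and DCN of 11 tested were lower in postE-EPI (18.2%, beside 1.5% over all genes). The part of other cells' transcripts in the contrast with postL-EPI was not tested. DESeq2 called 774 genes in place of 336, and day 14 against day 16 alone gave 108. Of the 34 calls against postL-EPI named in the text or drawn in the plot of early and late epiblast, 27 held in every fit without 1 embryo. Those of TGFB3, CENPF, MCM6, PCNA, KHDC3L, KRT18 and PGF did not, each lost in 2 to 12 of 14 fits. Over every alternative fit, only 9 of the 34 held. The calls of SPP1, TBPL2, DNMT3L, PFKP and TPI1, among others, were lost in the fit without day 16. Those of UTF1, TGFBI and TPI1, among others, were lost with day 14 against day 16 alone.

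**Figure D5:**
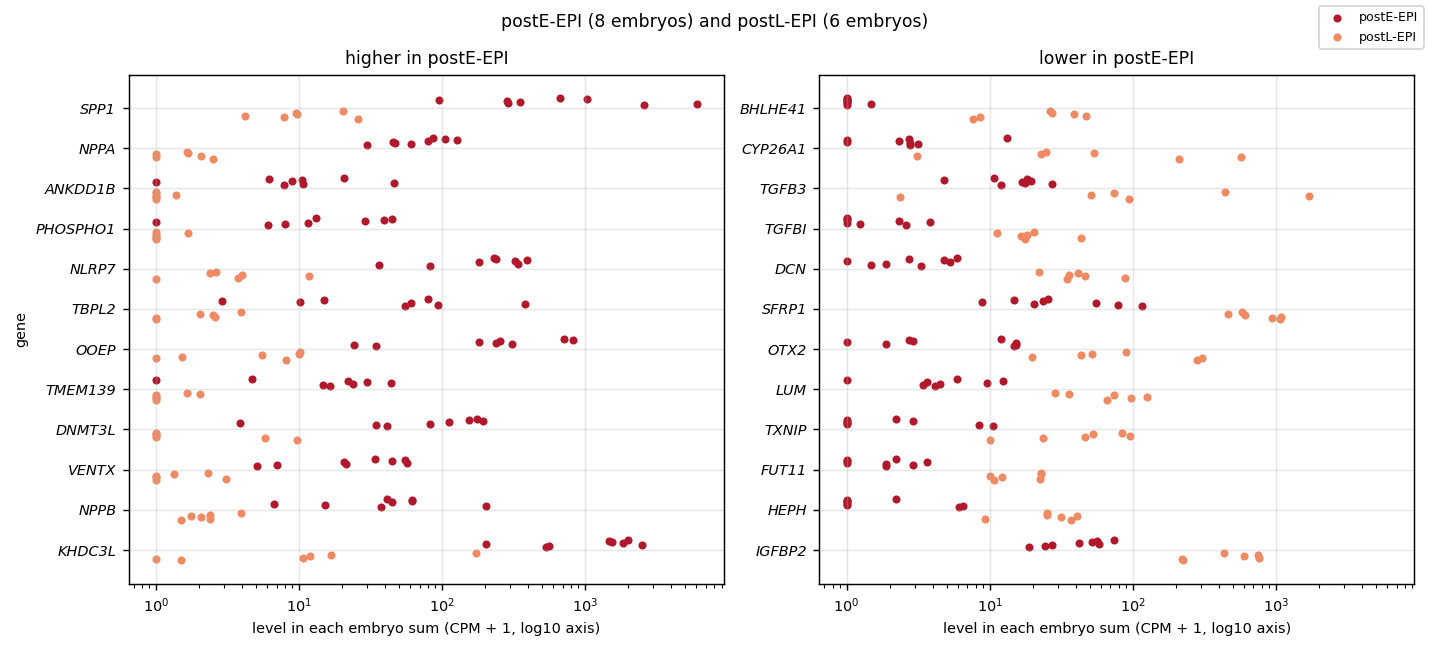
Level of the 12 genes most above and the 12 most below postL-EPI in the postE-EPI sums (8 embryos) and the postL-EPI sums (6 embryos), as CPM + 1 on a log10 axis; each point is 1 embryo. SPP1 lies between 95.0 and 6040.2 CPM in postE-EPI and at or under 24.9 CPM in postL-EPI.

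Single postE-EPI cells differed most in genes that were high in very few of them. Of 4042 genes with a mean of at least 50 CPM over the 170 cells, the 10 with the highest squared coefficient of variation for their mean were GALR1, C19H19orf18, CYP2C19, HHLA1, DIO1, NTRK3, CNN3, CALCOCO2, NRG2 and HMOX2. GALR1, a galanin receptor, was counted in 54 cells, and 5 cells held 92.6% of its summed CPM, the highest at 18111 CPM in day 14 replicate 2. HHLA1 was counted in 4 cells and CYP2C19, a cytochrome P450 of the liver, in 8. For the other 7 genes the top 5 cells held 60.5% to 96.3% of the total. CNN3, a calponin that binds actin, was counted in 168 of 170 cells, with 85.1% of its variance between embryos. Its highest cell, at 40038 CPM, was in day 13 replicate 1, which gave 4 postE-EPI cells. In the other 9 the share of variance between embryos ran from 1.38% to 49.9%. Where few cells hold most of a total, this share depends on how many cells their embryo gave. It was 49.9% for HHLA1, highest in day 14 replicate 1 with 2 cells. For GALR1, highest in day 14 replicate 2 with 53 cells, it was 1.38%. The share is therefore no measure of how far embryos differ.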

How the data were processed

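The deposited table holds raw read counts of single cells, from single-cell 3′-end RNA sequencing per the labels. The submitters' processing notes name STAR. The sources used here do not state the genome build, the counting rule, any collapsing of molecules, any removal of doublets or the annotation method, and cell barcodes were not used here. Cells were picked one by one, and no doublet caller was run. The table has 30792 genes and 1453 cells; of 16890 names starting with LOC (34.3% of counts), 3273 were given a symbol from RefSeq identifiers, and 6.99% of counts had none. No 2 cells held identical values.

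Counts were summed per embryo and annotated type (at least 5 cells) and tested with edgeR 4.0.16 (R 4.3.3; filterByExpr, TMM, robust quasi-likelihood, Benjamini-Hochberg threshold 0.05). The contrasts were the day within postE-EPI, the early types in 1 fit with the embryo as a block, postE-EPI against postL-EPI, and day by type. Alternatives were DESeq2 1.42.0, RLE scaling, no low-count filter, other cell minimums, cells thinned to 10000 counts, developmental stage labels only, pairs of types alone, and each embryo left out. In the day and postL-EPI fits, p-values measure the spread between embryos. With the embryo as a block, they measure the spread that is left between types within embryos. In the fit of the early types this spread is pooled over all types, so E-AM and E-Gast borrow it from types with more sums. Intervals cover counting error only (95%).

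The genes and lists were chosen with earlier results of these data known. Named genes were the 5 markers and, per contrast, called genes with a symbol and a mean of at least 10 CPM, ranked by log2 difference (20 higher and 10 lower over TE, EXMC and VE/YE, 4 per direction for single types, 12 against postL-EPI), and the 10 most variable of 4042 genes. The ranking over 3 types and the 10 CPM minimum for single types were chosen after seeing results. Scripts were tested on simulated data. Some genes that the rule or lists hold are not reported here.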

Additional observations from a re-analysis of the deposited data

Results flagged for a closer look

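The change with day differed between postE-EPI and another type of the same embryos for 2 genes, in a test of the difference itself (edgeR, interaction of day and type). DEGS2 had a difference in log2 change per day of 2.99 ± 0.41 between postE-EPI and TE, where its levels are given above for day 11 and day 14. FN1 had -1.36 ± 0.21 between postE-EPI and TE and -0.98 ± 0.14 between postE-EPI and EXMC. Each of these 3 calls was lost in at least 3 of the fits that left out 1 embryo, as given with the values above. No embryo stood apart in the levels of the 5 markers or in the share of postE-EPI cells in the 15 groups of 4 to 10 values that could be looked at, where chance alone would mark about 1 group in 20.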

How the results depend on the processing

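The directions of 309 differences of named genes were recomputed under each alternative that could give them and held, except NANOG with day, whose change was -0.14 per day without day 14. RLE scaling moved no count of calls by more than 1.5 times. Within days 11 to 14, genes called for a change with day, 0 in the main test, were 67 with DESeq2, 346 without a low-count filter, 5 with at least 10 cells per sum, 2 with developmental stage labels only, 4 with cells thinned to 10000 counts, 1 with a covariate for the kind of stage label, 1 without day 14, and 0 to 10 leaving out 1 embryo. Thinned cells gave 3320 genes against TE, 2177 against EXMC and 1433 against VE/YE. Leaving out 1 embryo gave 6253 to 7096, 4302 to 5005 and 2042 to 3398 in that order, and 18 to 332 against E-AM, 0 to 4 against E-Gast and 239 to 369 against postL-EPI. Against VE/YE, at least 10 cells per sum gave 534 and the pair of types alone 2121. Against E-AM the counts were 501 (DESeq2), 499 (no filter), 919 (at least 3 cells), 20 (developmental stage labels only) and 74 (the pair alone). Against E-Gast they were 22 (DESeq2), 60 (no filter), 1 (at least 3 cells), 0 (at least 10), 1 (developmental stage labels only), 0 (thinned) and 114 (the pair alone). Against postL-EPI they were 774 (DESeq2), 520 (at least 3 cells), 108 (day 14 against day 16 only), 532 (without day 17) and 635 (without day 16), the last 3 chosen after seeing the data. The day by type test against TE gave 76 (DESeq2), 86 (no filter), 0 (at least 3 cells), 9 (at least 10), 6 (developmental stage labels only), 12 (thinned) and 1 to 13 leaving out 1 embryo, and against EXMC 18, 39, 0, 3 and 2 for the first 5 of these and 0 to 10 leaving out 1 embryo. Without a filter 3 genes were higher than in each other type, in place of 0, and every fit that left out 1 embryo gave 0. The causes were not tested. No paired analysis was possible by replicate number, because the numbers only name embryos within a day. The types were compared within embryos in the main test, through the embryo block. Depth limits low genes: a gene without a count in the summed cells of a type is bounded by 3 counts.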

Other observations

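Genes of retinoid handling were lower in postE-EPI than in its VE/YE and EXMC neighbours for most members that differed. Of 10 tested, 1 was higher and 5 lower than in VE/YE, 1 higher and 4 lower than in EXMC, and 5 higher and 2 lower than in TE, by edgeR's test over all genes. The shares higher, 10%, 10% and 50%, stood beside 12%, 18.3% and 23.8% over all genes. The shares lower, 50%, 40% and 20%, stood beside 9.46%, 13.7% and 21.9%. CYP26A1, which degrades retinoic acid, had 0, 1.75 and 12.2 CPM as the lowest, median and highest postE-EPI sum and 93.8, 334 and 1538 CPM in VE/YE (-6.55 ± 0.88, adjusted p = 5.31e-06). CRABP2, which carries retinoic acid to its receptors, was lower than in VE/YE (-1.93 ± 0.56, adjusted p = 0.0157) and higher than in TE (4.19 ± 0.47, adjusted p = 1.36e-07). STRA6, a receptor for retinol uptake, was lower than in TE (-3.20 ± 0.53), EXMC (-1.88 ± 0.55) and VE/YE (-2.66 ± 0.71), and the retinoic acid receptor RARG was the 1 gene of the list higher in all 3 (3.07 ± 0.72, 1.96 ± 0.78 and 3.46 ± 1.25). Leaving out 1 embryo ended the call of RARG against EXMC in 9 fits and against VE/YE in 6, and without day 12 replicate 2 those of CRABP2 and STRA6 against VE/YE were lost as well (adjusted p = 0.0667 and 0.0749).

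Of 17 glycolytic genes 6 were higher and 3 lower than in TE, 5 and 2 than in EXMC, and 3 and 0 than in VE/YE. The shares higher were 35.3%, 29.4% and 17.6% beside 23.8%, 18.3% and 12% over all genes, and the shares lower than TE and EXMC, 17.6% and 11.8%, were under the 21.9% and 13.7% over all genes. PDK1, a kinase that inhibits pyruvate dehydrogenase, was higher than in TE (2.17 ± 0.40, adjusted p = 3.38e-05) and EXMC (1.18 ± 0.39, adjusted p = 0.0164), and HK2, a hexokinase, likewise (1.24 ± 0.30 and 1.71 ± 0.30). The call of PDK1 against EXMC was lost without day 11 replicate 2 (adjusted p = 0.0513) or day 12 replicate 2 (adjusted p = 0.081).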
